A study of Homo sapiens with 16 samples.

Results

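The 9 genes described here encode enzymes, a binding protein and receptors of the retinoid pathway. They are DHRS3, RDH10, ALDH1A3, CYP26A1, CYP26B1, CRABP2, RARA, RARB and RARG, out of 39007 genes in the deposited table. The set was picked from these same data because DHRS3 had the largest fall of all tested genes in early phase P3 and in intermediate phase P7 against parental phase P0. RNA was sequenced from 16 libraries, 4 in each of 4 phases. Parental phase P0 was the T24 human bladder cancer cell line, and the GRC1 cell line, a gemcitabine-resistant derivative of T24, gave P3, P7 and the late phase P15. Gemcitabine is a nucleoside analogue used in chemotherapy, and the number of a phase counts the rounds of exposure and regrowth that it had gone through. All cells were grown in DMEM with serum and antibiotics. The titles of all 16 libraries carry the label NT, which is not explained. Whether gemcitabine was present when the RNA was taken is not stated. GRC1 was 1 of 4 resistant lines that were made, so the phases P3, P7 and P15 follow 1 line, and nothing states that the libraries of a phase came from separate cultures. The p-values given here therefore measure only the spread between libraries, which may be technical.

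Retinoids are the vitamin A derivatives. Retinol is oxidised to retinal by enzymes such as RDH10, and DHRS3 carries out the reverse reaction, so that both enzymes set how much retinal is at hand. ALDH1A3 oxidises retinal to retinoic acid, CRABP2 carries retinoic acid within the cell, and CYP26A1 and CYP26B1 break it down. The receptors RARA, RARB and RARG bind retinoic acid and act on DNA together with an RXR partner. In the urothelium, the lining of the bladder, retinoids take part in the maintenance and regrowth of the epithelium. RARB and CYP26A1 are textbook targets of retinoic acid, through repeats of a short half-site in their promoters, and DHRS3 is also known to be induced by it.

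Promoter sequences of RARB, CYP26A1 and DHRS3 are shown because the first pair are the classical target genes, which were almost without reads in these libraries, and DHRS3 is the member with the widest range. They were taken from RefSeq (GRCh38.p14), in windows from 250 bases before to 50 bases after the start of a transcript, and 8 of the 9 genes had a window. The motif searched was a direct repeat of a half-site with a spacer of 5 bases, on both strands. A half-site was any of AGGTCA (the consensus form), AGTTCA (found in RARB and CYP26A1), GGGTCA (with a first G) and GGTTCA (with both of these changes). The repeat, its spacer included, is in capitals in the first and the second sequence, and a half-site outside it is in lower case.

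RARB, chr3:25428175-25428261, plus strand: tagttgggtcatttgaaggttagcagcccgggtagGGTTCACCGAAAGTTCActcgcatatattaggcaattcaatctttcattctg

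CYP26A1, chr10:93073768-93073854, plus strand: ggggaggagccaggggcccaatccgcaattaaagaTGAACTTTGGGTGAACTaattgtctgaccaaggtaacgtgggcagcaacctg

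DHRS3, chr1:12618211-12618330, minus strand: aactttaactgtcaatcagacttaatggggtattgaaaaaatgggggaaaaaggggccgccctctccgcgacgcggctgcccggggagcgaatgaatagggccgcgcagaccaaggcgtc

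The repeat of RARB ran from 53 to 37 bases before the start, and that of CYP26A1 from 90 to 74 bases before it. In CYP26A1 the half-sites read on the opposite strand, as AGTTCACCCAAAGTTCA. The repeat was found in 31 of 35116 windows (0.0883%), and in 29 of 27305 genes (0.106%). Of the 8 members with a window, CYP26A1 and RARB held it. Both are known targets, and the half-sites took in a form found in them, so their match was fixed in advance. Nothing is read from that number beside the shares. None of the 3 windows of DHRS3 did, and the 120 bases shown for it held 0 bases in these half-sites. Among the other retinoid pathway genes described below, 0 of 53 with a window held it. With a spacer of 1 or 2 bases, the repeat was in 0.131% and 0.0399% of windows and in 0 members. A match describes these letters only, and a missing match says nothing about sites elsewhere.

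The values given are log2(CPM + 1), where CPM stands for counts per 1 M counts of the library. The steps between low values gave back whole counts and put the libraries at 33.8 to 50.02 M counts, and 1 count at 0.02 to 0.0296 CPM. Among counts of 1 to 10, between 70.9% and 73.0% were even, as when both mates of a read pair are counted, and intervals on low counts were therefore computed on read pairs and cover counting error only. Libraries of the same phase correlated at 0.996 or more across genes. Genes of very different level keep such a value high, so it cannot show that no library stood apart. Markers of urothelial cells, the labelled tissue, moved with the phases, most of all with P15. GATA3, a transcription factor of the urothelium, had mean log2 values of 5.21 at P0 and 1.28 at P15, FOXA1 had 4.88 at P0, 3.13 at P7 and 2.06 at P15, KRT19 had 6.43, 3.73 and 0.02 in these phases, and the keratin gene KRT7 had 9.90 at P0 and 3.64 at P15, while the keratin gene KRT18 had 8.88 and 9.31. UPK1B, UPK3A, KRT5 and KRT20, defining markers of urothelial cells, were at or near 0 in both phases, and the uroplakin gene UPK1A had 0.10 at P0 and 1.57 at P15. The summed level of all 12 urothelial markers was 1603 to 1674 CPM at P0, 1643 to 1714 at P3, 1133 to 1223 at P7 and 626 to 702 at P15. The 7 markers of fibroblasts and smooth muscle summed to 9.40 to 10.8 CPM at P0, 4.17 to 6.38 at P3, 8.73 to 9.20 at P7 and 27.6 to 30.7 at P15. Of that list, COL1A1 was higher at P15 than at P0 by 2.05, PDGFRB was higher at P15 than at P7 by 1.08 and differed from P0 by -0.15, ACTA2 differed from P7 by -0.81, and DCN was at 0 in P0 and P15. The P3 libraries ranged from 0 to 0.70 for COL1A2, from 0 to 0.57 for LUM and from 0 to 0.20 for DCN. The 4 endothelial markers summed to 6.0 to 7.95 CPM at P0 and to at most 1.09 in the other phases. Most of the P0 sum was CDH5, with a mean of 5.69 CPM there. PECAM1 had 0.94, KDR 0.07 and VWF 0.04 CPM at P0. The 5 leukocyte markers summed to at most 0.204 CPM in any library. The part of these differences in the results below was not tested. The labels name no sequencing run. The S numbers in the library titles repeat between phases and are not explained, so whether a run went with a phase cannot be told.

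DHRS3 was abundant in the parental cells and close to absent in early phase P3. DHRS3 (ENSG00000162496, GRCh38, chromosome 1, 12567910 to 12618210, minus strand) had log2 values of 6.39, 6.44, 6.41 and 6.47 in the P0 libraries and of 0.34, 0.07, 0.26 and 0.16 in the P3 libraries. Its values were 0.84, 0.94, 0.78 and 0.82 at P7, and 1.66, 1.72, 1.42 and 1.67 at P15. The 4 phases did not overlap, with P0 highest, then P15, P7 and P3. In bulk RNA, fewer cells with a transcript and less of it per cell cannot be told apart. As counts, the P3 libraries held 10, 2, 8 and 4, those of P7 held 30, 46, 25 and 30, and those of P15 held 86, 98, 60 and 98, against 2885 to 3144 in each P0 library. Some reads of DHRS3 were thus found in every library. Pooled over 4 libraries, the level was 85.1 CPM at P0, 0.157 CPM at P3 (95% interval 0.0810 to 0.274, exact Poisson), 0.809 CPM at P7 (0.625 to 1.03) and 2.09 CPM at P15 (1.79 to 2.43).

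**Figure D1:**
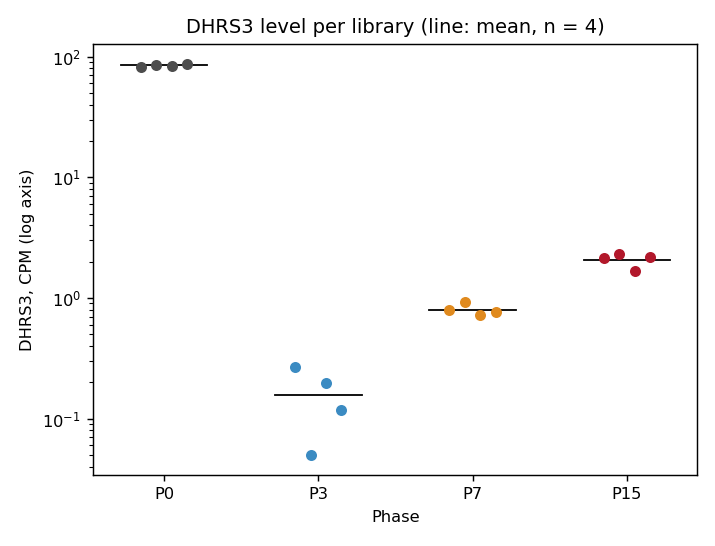
DHRS3 in CPM on a log axis, 1 point per library and a line at the mean of the 4 libraries of each phase. The P0 libraries sit between 82.9 and 87.6 CPM, those of P3 between 0.0497 and 0.266 CPM, and those of P7 (0.717 to 0.919) and P15 (1.68 to 2.29) lie between them.

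Because DHRS3 chose the set, its differences are a description and carry no test in any comparison. On the log2 scale it was lower than at P0 by 6.22 at P3, by 5.58 at P7 and by 4.81 at P15, with a standard error of 0.082 from limma for each. The pseudocount of 1 compresses such a gene. The P0 level was 74.5, 47.9 and 28.1 times that of P3, P7 and P15 on the log2(CPM + 1) scale, but 543 times (95% interval 311 to 1051), 105 times (81.9 to 135) and 40.7 times (34.9 to 47.6) as a ratio of pooled CPM. Between the resistant phases, the pooled CPM at P7 was 5.16 times that at P3 (2.79 to 10.6). That at P15 was 2.58 times that at P7 (1.92 to 3.46). The intervals cover counting error only, and the standard error only the spread between libraries. Neither takes account of the choice of DHRS3 as the largest fall, so neither is a test. The next falls after DHRS3 at P3 against P0 were those of MAGEA6 by 3.93, FAM65C by 3.30 and LIPG by 3.05 on the log2 scale. At P7 against P0, they were those of MAGEA6 by 4.17, KRT81 by 3.79 and TMEM47 by 3.47. The mean of DHRS3 at P15 was 1.62, against 6.43 at P0.

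The genes with a course most like that of DHRS3 were named by the smallest root-mean-square difference of log2 values across all 16 libraries, after the mean of each gene was subtracted. They were MAGEB17 (1.20), RP11-431J24.2 (1.24), MAGEA6 (1.36), LIPG (1.37) and CDH5 (1.39), where the median of the 13248 other tested genes was 2.47. The same 5 genes came first when the 4 phase means were used, which come from the same libraries and are no separate check. All were highest at P0, as DHRS3 was, which the way of choosing them favoured. None had as wide a range. MAGEB17, a gene of the melanoma antigen family, had means of 3.23 at P0, 0.26 at P3, 0.05 at P7 and 0.13 at P15, and CDH5, the cadherin of endothelial cells, had 2.74, 0.28, 0 and 0.18. The other melanoma antigen gene, MAGEA6, differed from DHRS3 at the last step, with means of 4.38, 0.45, 0.21 and 3.31. LIPG, which encodes endothelial lipase, had means of 5.18, 2.13, 2.92 and 1.88.

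RDH10, which oxidises retinol to retinal, was also highest in the parental cells. RDH10 (ENSG00000121039, chromosome 8, 73294602 to 73325281, plus strand) had log2 values of 3.80, 4.07, 3.95 and 3.94 at P0 and of 2.31, 2.49, 2.55 and 2.49 at P3. Those of P7 were 2.66, 2.78, 2.77 and 2.80, and those of P15 were 2.95, 3.12, 2.86 and 2.82. All 12 libraries of the resistant phases lay below the 4 of P0. The mean was lower than at P0 by 1.48 at P3 and by 1.19 at P7 (standard error 0.079), values that carry no test because the set was picked on those comparisons. At P15 it differed from P0 by -1.0025 (adjusted p = 2e-11), just past the limit of 2-fold that was set for a change. The difference was -0.96 without P0 replicate 2 or without P15 replicate 4, -0.98 without P15 replicate 3, -0.999 without P0 replicate 3 and -0.73 with a pseudocount of 5, all short of 2-fold. From P3 to P7, RDH10 was higher by 0.29 (adjusted p = 0.0029), and from P7 to P15 by 0.18 (adjusted p = 0.033). The latter lost significance when all libraries were set to the same median (0.14, adjusted p = 0.093), and without P7 replicate 1, P15 replicate 1 or P15 replicate 2 (0.15, 0.18 and 0.12, adjusted p = 0.097, 0.059 and 0.15). Of the merged exons of RDH10, 5.2% lay over the antisense gene RDH10-AS1.

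ALDH1A3, which makes retinoic acid from retinal, was lower at P3 and P7 than in the parental cells, like DHRS3 and RDH10, but higher than in them in the late phase. Its log2 values (ENSG00000184254, chromosome 15, 100877714 to 100916626, plus strand) were 8.36, 8.33, 8.34 and 8.35 at P0 and 6.73, 6.64, 6.72 and 6.68 at P3. They were 7.26, 7.39, 7.46 and 7.30 at P7, and 8.76, 8.73, 8.84 and 8.70 at P15. No phase overlapped another, in the order P3, P7, P0, P15. Against P0, ALDH1A3 was lower by 1.65 at P3 and by 0.99 at P7 (standard error 0.038, no test). It was higher by 0.66 at P7 than at P3 (adjusted p = 6.4e-13) and rose by 1.41 from P7 to P15 (adjusted p = 8.6e-21). The late phase exceeded P0 by 0.41 (adjusted p = 3.8e-10), which was less than 2-fold. In CPM, the P15 libraries held 415 to 457 and the P0 libraries 321 to 328. The antisense gene ALDH1A3-AS1 covered 32.1% of the merged exons, and the strand setting of the authors' counting is not given in the sources used here, so reads of the pair cannot be told apart. No other retinal dehydrogenase of the list described below passed the limit of 1 CPM. The highest phase mean of ALDH1A1 was 0.39, that of ALDH1A2 was 0.15 and that of ALDH8A1 was 0.34 on the log2 scale.

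CYP26B1 was the only gene of the CYP26 family with a mean above 1 CPM, and it was highest in early phase P3. Its log2 values (ENSG00000003137, chromosome 2, 72129238 to 72147862, minus strand) were 4.22, 4.2, 4.1 and 4.16 at P0 and 4.83, 4.94, 4.91 and 4.88 at P3. At P7 they were 4.38, 4.32, 4.28 and 4.39, and at P15 they were 4.14, 3.98, 4.18 and 4.17. The P3 libraries stood above all others, and those of P0 and P15 overlapped. CYP26B1 exceeded P0 by 0.72 at P3 and by 0.17 at P7 (standard error 0.054, no test). It was lower at P7 than at P3 by 0.55 (adjusted p = 7.6e-09) and lower at P15 than at P7 by 0.23 (adjusted p = 0.00048), neither reaching 2-fold. At P15 it differed from P0 by -0.05, with an adjusted p of 0.36.

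CYP26A1 (ENSG00000095596, chromosome 10, 93073475 to 93077885, plus strand) stayed at the edge of detection and was not tested. It had 2 counts in P0 replicate 1, 2 each in P3 replicates 1 and 3, none at P7 and 2 in each P15 library. The total of 0 at P7 allowed a level of up to 0.0456 CPM (the upper end of the 95% interval, on read pairs over the 4 libraries), and the 8 counts at P15 gave 0.0489 CPM (95% interval 0.0133 to 0.125). A change of CYP26A1 was not detectable at this depth. Of its exons, 25.3% were shared with a non-coding gene on the same strand.

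CRABP2 was low in the first 3 phases and rose in the late phase. Its log2 values (ENSG00000143320, chromosome 1, 156699606 to 156705816, minus strand) were 1.23, 1.20, 0.90 and 1.04 at P0 and 0.93, 0.76, 1.27 and 1.31 at P3. Those of P7 were 1.21, 0.86, 1.23 and 0.94, and those of P15 were 2.90, 3.13, 3.03 and 2.94. The libraries of P0, P3 and P7 overlapped, and all 4 of P15 lay above them. CRABP2 differed from P0 by -0.02 at P3 and by -0.03 at P7 (standard error 0.12, no test), and P7 differed from P3 by -0.01 (adjusted p = 0.96). It rose by 1.94 from P7 to P15 (adjusted p = 1.5e-13) and was higher at P15 than at P0 by 1.91 (adjusted p = 2.3e-13). In CPM, the mean was 1.14 ± 0.22 at P0 and 7.02 ± 0.57 at P15 (SD, n = 4). The size of the log2 difference depended on the pseudocount, from 0.97 with 5 to 2.53 with 0.1 for P15 against P0.

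The receptor genes RARA and RARG differed in direction in the late phase, with RARA lower and RARG higher than before. RARA (ENSG00000131759, chromosome 17, 40309180 to 40357643, plus strand) had log2 values of 4.85, 5.08, 5.02 and 5.01 at P0 and of 4.81, 4.98, 4.74 and 4.77 at P3. It had 5.20, 5.04, 5.24 and 5.12 at P7, and 4.36, 4.43, 4.53 and 4.39 at P15. The P15 libraries were the lowest, and those of P0 overlapped with P3 and with P7. The mean differed from P0 by -0.17 at P3 and by 0.16 at P7 (standard error 0.061, no test). RARA was higher at P7 than at P3 by 0.33 (adjusted p = 7.7e-05), lower at P15 than at P7 by 0.72 (adjusted p = 6.1e-11) and lower at P15 than at P0 by 0.56 (adjusted p = 6.4e-09), all less than 2-fold. Of its exons, 11.7% lay over the antisense gene RARA-AS1.

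RARG (ENSG00000172819, chromosome 12, 53210567 to 53232980, minus strand) had log2 values of 4.73, 4.95, 4.77 and 4.81 at P0 and of 4.61, 4.65, 4.70 and 4.70 at P3. Its P7 values were 5.13, 5.17, 5.12 and 5.25, and its P15 values were 6.46, 6.45, 6.29 and 6.38. No phases overlapped, although P0 and P3 were 0.03 apart at their nearest libraries. Against P0, RARG differed by -0.15 at P3 and by 0.35 at P7 (standard error 0.05, no test). At P7 it was higher than at P3 by 0.50 (adjusted p = 1e-08). From P7 to P15 it rose by 1.23 (adjusted p = 3.7e-17), and it was higher at P15 than at P0 by 1.58 (adjusted p = 2.4e-19), from 27.2 ± 1.9 to 83.2 ± 4.5 CPM (SD, n = 4).

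RARB (ENSG00000077092, chromosome 3, 24687887 to 25597932, plus strand), the receptor gene that retinoic acid induces, was not tested because its mean was below 1 CPM. Its 4 libraries held 21 counts in all at P0, 13 at P3, 6 at P7 and 20 at P15, and P7 replicate 3 held 0. The P7 libraries, at 0 to 0.07, lay below those of P0, at 0.15 to 0.22 on the log2 scale. The ratio of pooled CPM of P0 over P7 was 3.92, with a 95% counting interval of 0.96 to 21.1 that includes equality.

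**Figure D2:**
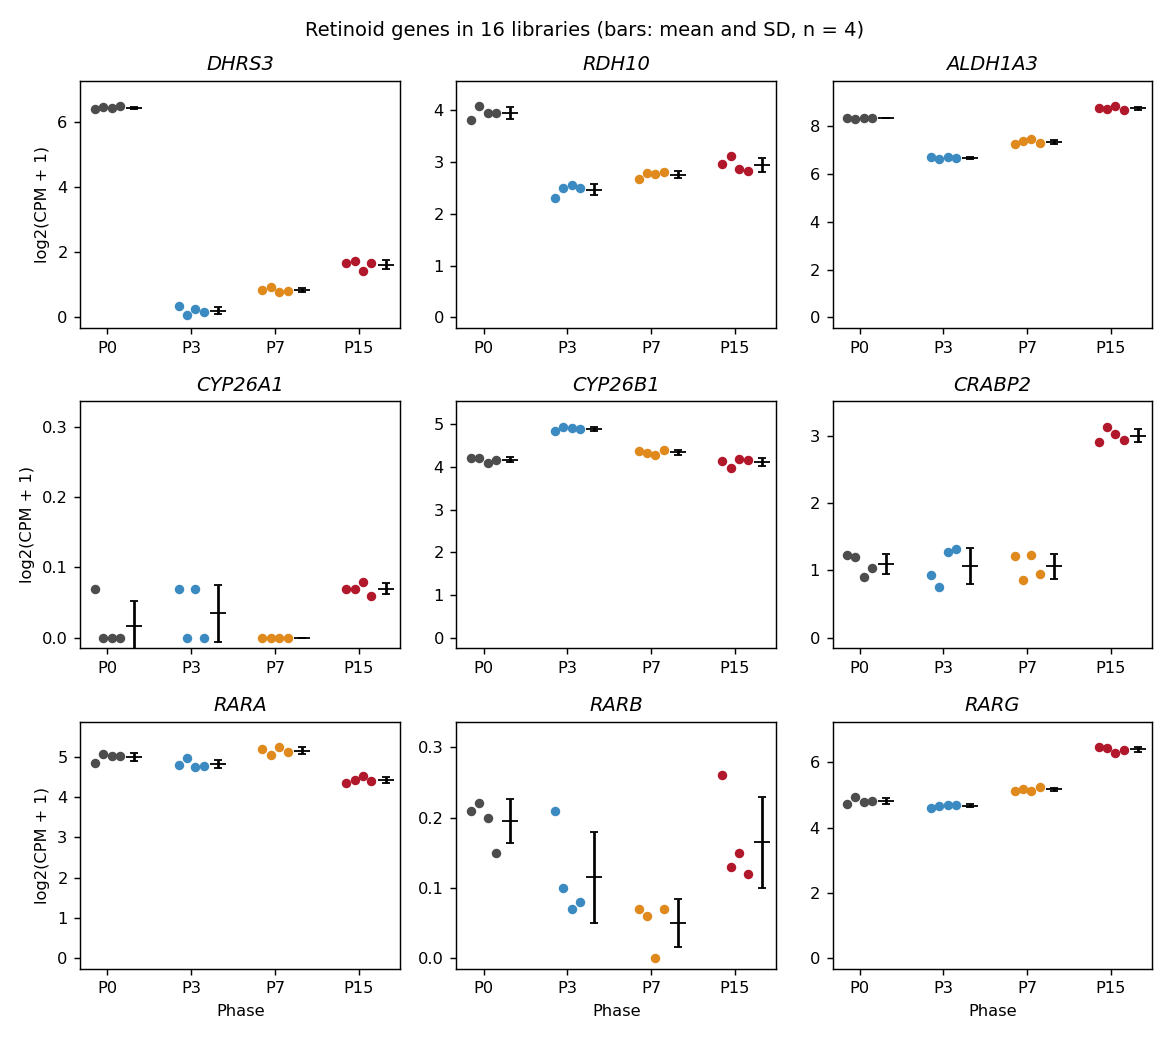
Log2(CPM + 1) of the 9 genes, 1 point per library, with the mean and SD of the 4 libraries of each phase. DHRS3 ranges over 6.22 between its highest and lowest phase mean, against 2.07 for ALDH1A3 and 1.94 for CRABP2, and CYP26A1 and RARB stay below 0.3 on axes that are drawn out for them.

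The range from the lowest to the highest phase mean was 6.22 for DHRS3, 2.07 for ALDH1A3, 1.94 for CRABP2, 1.73 for RARG, 1.48 for RDH10, 0.77 for CYP26B1 and 0.72 for RARA. The median over all tested genes was 0.73. CYP26B1 and RARA thus ranged about as much as the median gene. The phase with the highest mean was P0 for DHRS3 and RDH10, P3 for CYP26B1, P7 for RARA, and P15 for ALDH1A3, CRABP2 and RARG.

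To set the genes against each other, CPM were divided by the merged exon length in kb. In P0, ALDH1A3 was the most abundant at 60.8 CPM per kb, followed by DHRS3 at 24.2, RARA at 6.50, RARG at 5.30, CYP26B1 at 3.52, RDH10 at 2.70 and CRABP2 at 1.05. No neighbours in that order overlapped between libraries. RARB, at 0.0153, and CYP26A1, at 0.0042, came last and overlapped. In P3 the order was ALDH1A3 at 19.2, then CYP26B1 at 5.92 and RARA at 5.78, which overlapped, RARG at 4.75, and then CRABP2 at 1.04 and RDH10 at 0.846, which overlapped too. DHRS3, in the second place at P0, came after these at 0.0448 CPM per kb (0.0141 to 0.0756), and its libraries overlapped with those of RARB, at a mean of 0.0089 (0.0053 to 0.0166), the next in the order. In P7 ALDH1A3 led at 30.5, RARA at 7.29 and RARG at 6.82 overlapped, CYP26B1 stood at 3.99, RDH10 at 1.08 and CRABP2 at 1.01 overlapped, and DHRS3 stood at 0.227. In P15 the order was ALDH1A3 at 81.0, RARG at 16.2, CRABP2 at 6.48, RARA at 4.33, CYP26B1 at 3.39, RDH10 at 1.25 and DHRS3 at 0.591, with no overlap between neighbours.

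Ratios within a library put pairs with opposed or like roles side by side, and are descriptions with no test. RARG over RARA in CPM was 0.883 ± 0.039 at P0, 0.894 ± 0.084 at P3 and 1.02 ± 0.095 at P7 (SD, n = 4), and then 4.07 ± 0.41 at P15. The P3 libraries, at 0.789 to 0.972, overlapped with those of P0 and of P7, and the highest P0 library, at 0.917, lay just below the lowest of P7, at 0.918. The lowest P15 library, at 3.49, stood above all others. DHRS3 over RDH10, the reducing over the oxidising enzyme, was 5.94 ± 0.42 at P0, 0.036 ± 0.024 at P3, 0.139 ± 0.016 at P7 and 0.312 ± 0.039 at P15. DHRS3 had more reads than RDH10 in every P0 library and fewer in all 12 others. ALDH1A3 over CYP26B1, the making over the breakdown of retinoic acid, was 19.1 ± 0.72 at P0, 3.58 ± 0.21 at P3, 8.45 ± 0.85 at P7 and 26.4 ± 1.8 at P15.

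**Figure D3:**
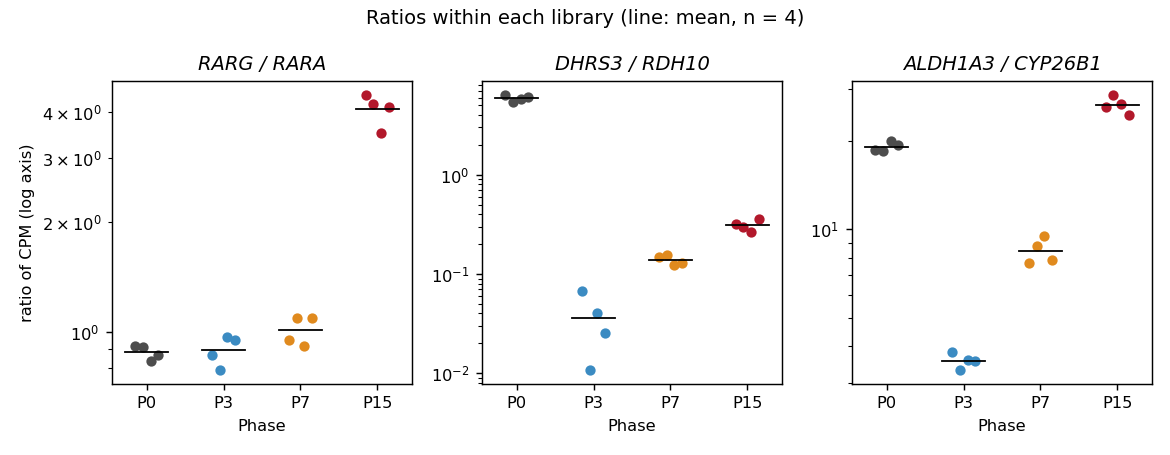
Ratio of the CPM of 2 genes within each library on log axes, 1 point per library and a line at the mean. RARG over RARA is 0.789 to 1.10 in the libraries of P0, P3 and P7 and 3.49 to 4.46 in those of P15, while DHRS3 over RDH10 drops from 5.43 to 6.41 at P0 to 0.0108 to 0.0671 at P3.

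Phases were compared with limma on the 13249 genes with a mean above 1 CPM, and a gene was counted as changed at an adjusted p-value below 0.05 and at least 2-fold. Besides DHRS3, 6 members passed that limit of 1 CPM. In P7 against P3, 0 of the 6 changed, where 0.989% of all tested genes were higher and 0.845% lower. Without the 2-fold limit, 5 of the 6 passed, with an unadjusted as with an adjusted p below 0.05, and CRABP2 did not. Of all 13249 tested genes, 7713 passed the adjusted p without that limit, so most genes did. In P15 against P7, 3 of the 6 (CRABP2, ALDH1A3 and RARG) were higher and 0 were lower, against 13.4% and 12.1% of all tested genes. The median difference of the 6 was 0.71 and that of all tested genes 0.05. In P15 against P0, 2 (CRABP2 and RARG) were higher and RDH10 was lower, against 12.1% and 11.4% of all genes, with medians of 0.18 and 0.04. With a pseudocount of 5, 1 of these 3 was left, RARG. The comparisons share the P7 or P15 libraries, so they are not independent. In P3 against P0, 1.95% of all genes were higher and 2.51% lower, and in P7 against P0 1.86% and 1.52%. Nothing is read from these for the members, which were picked on them.

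**Figure D4:**
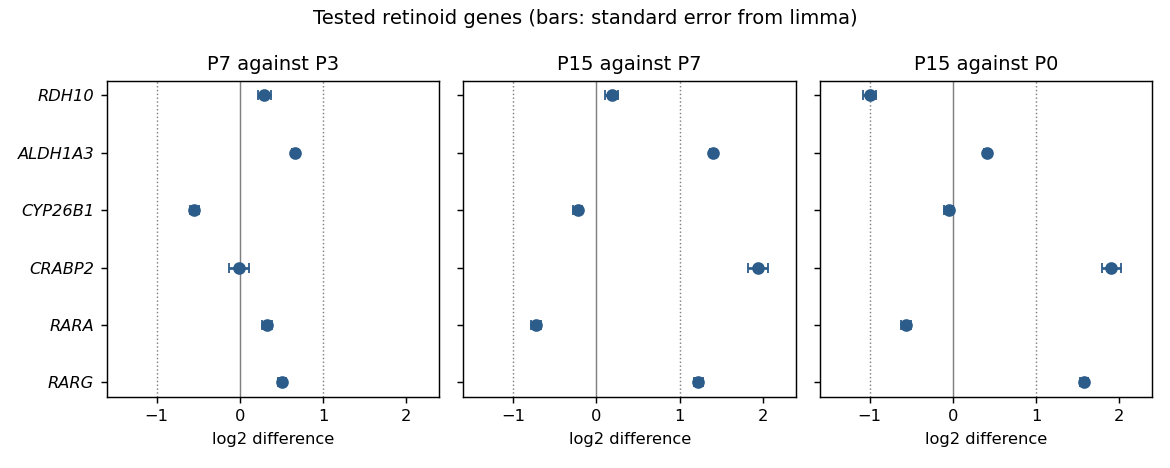
Log2 difference of the 6 tested members in 3 comparisons, with the standard error from limma, a solid line at 0 and dotted lines at the 2-fold limit. In P7 against P3 all lie within 2-fold, in P15 against P7 CRABP2 (1.94), ALDH1A3 (1.41) and RARG (1.23) lie above it, and in P15 against P0 RDH10 (-1.0025) sits on the lower limit.

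A list of 68 other genes of retinoid uptake, metabolism, receptor partnership and response was set beside the members. Of these, 67 were in the table and 35 passed 1 CPM. In P7 against P3, 3 of the 35 were higher and 0 lower, where 0.989% of all tested genes were higher and 0.845% lower. BCO2, HSD17B6 and PRAME had a mean above 1 CPM only through their P15 libraries and so had to differ there, and they were left out of the comparisons with P15. No member passed 1 CPM through a single phase. Of the other 32 genes, 2 were higher and 7 lower in P15 against P7, where 13.4% of all tested genes were higher and 12.1% lower. In P15 against P0, 3 were higher and 6 lower, against 12.1% and 11.4% of all tested genes. With the 3 genes, the numbers higher were 5 and 6. The median difference of the 32 genes was 0.03 and -0.23 in these comparisons, that of the 35 in P7 against P3 was 0.04, and the median of all tested genes was 0.05, 0.04 and 0.01 in the same order. In P3 against P0, 0 were higher and 4 (STRA6, SCARB1, NRIP1 and TNFAIP2) lower, and in P7 against P0 2 (AKR1C3 and BHLHE40) were higher and 0 lower, with nothing read from either count.

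In uptake and storage, 4 of 12 genes were tested. STRA6, the membrane receptor that takes up retinol from its carrier in plasma, came and went. Its log2 values were 2.21, 2.41, 2.16 and 2.43 at P0, 0.21, 0.14, 0.45 and 0.44 at P3, 1.86, 1.90, 2.15 and 1.87 at P7, and 0.20, 0.19, 0.29 and 0.29 at P15. STRA6 was thus high in P0 and P7 and low in P3 and P15, without overlap between the high and the low phases. It rose by 1.64 from P3 to P7 (adjusted p = 2e-12), fell by 1.70 from P7 to P15 (adjusted p = 6.1e-14) and was lower at P15 than at P0 by 2.06 (adjusted p = 1.4e-15). In pooled CPM, P7 was 11.8 times P3 (95% interval 7.48 to 20.8) and 15.5 times P15 (9.20 to 28.1). SCARB1, a lipoprotein receptor that also takes up carotenoids, rose by 1.05 from P3 to P7 (adjusted p = 2.2e-14) and by 2.53 from P7 to P15 (adjusted p = 2.1e-23), and its P15 libraries, at 7.37 to 7.53, exceeded those of P0, at 5.41 to 5.49. BCO2, which cleaves carotenoids, was at 0.14 to 0.66 in the first 3 phases and at 2.14 to 2.36 at P15, a difference of 1.93 from P7. BCO2 passed 1 CPM only through its P15 libraries and so had to differ there. LRAT, which esterifies retinol for storage, was not tested and had a highest phase mean of 0.33, at P15. Also untested, RPE65 had means of 0.07 at P7 and 1.39 at P15, and RBP4 had 1.20 at P0 and 0 at P15.

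Among the retinol and retinal oxidoreductases, 6 of 18 were tested. AKR1C3, an aldo-keto reductase that can reduce retinal, had its highest values at P7, with libraries at 3.5 to 3.59 against 1.94 to 2.82 at P0, 1.96 to 2.34 at P3 and 1.36 to 1.64 at P15. It rose by 1.43 from P3 to P7 (adjusted p = 1.5e-09) and fell by 2.06 from P7 to P15 (adjusted p = 1.6e-13). HSD17B6 was at 0.45 to 0.91 in the first 3 phases and at 1.88 to 2.21 at P15, a difference of 1.24 from P7. Like BCO2, it passed 1 CPM only through P15 and so had to differ there. Of the other genes of retinoic acid breakdown and transport, the fatty acid carrier FABP5 was the 1 tested of 3, and it did not reach 2-fold in any comparison.

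The partner genes RXRA and RXRB moved in opposite directions at P15, RXRB by less than 2-fold. RXRA, the main partner of the RARs in many epithelia, was at 6.25 to 6.39 at P0, 6.63 to 6.77 at P3, 6.79 to 6.85 at P7 and 4.87 to 5.08 at P15. The P15 libraries lay below all others, with a fall of 1.87 from P7 (adjusted p = 5.8e-22) and of 1.36 from P0 (adjusted p = 4e-19). PPARD, another nuclear receptor that pairs with RXR, rose by 1.64 from P7 to P15 (adjusted p = 1.6e-20), to 7.20 to 7.43. RXRB was higher at P15 than at P7 by 0.61 (adjusted p = 8.6e-12), less than 2-fold, and RXRG was not tested.

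Of 12 coregulators, 11 were tested. PRAME, a tumour antigen known to repress signalling through the RARs, was close to 0 until P7 and abundant at P15. Its log2 values were 0.21, 0.22, 0 and 0 at P0, 0.07, 0.14, 0.07 and 0.08 at P3, 0.07, 0.06, 0.16 and 0 at P7, and 6.65, 6.68, 6.63 and 6.63 at P15. Only the P15 libraries held more than a few reads, 16235 counts in all against 12, 10 and 8 in the other phases. The difference from P7 was 6.58 on the log2 scale, and the ratio of pooled CPM was 2009 (95% interval 784 to 7375). PRAME passed 1 CPM only through its P15 libraries and so had to differ there. The interval covers counting error only and is no test. NRIP1, a corepressor that retinoic acid induces, had libraries at 6.64 to 6.89 at P0, 5.59 to 5.74 at P3, 5.88 to 5.96 at P7 and 4.10 to 4.36 at P15. It fell by 1.68 from P7 to P15 (adjusted p = 1.9e-19) and differed between P15 and P0 by -2.56 (adjusted p = 4.4e-23).

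Of 15 genes known to respond to retinoic acid, 10 were tested, and in P15 against P7 0 were higher and 3 lower, against 13.4% and 12.1% of all tested genes. NAV2, named as a neuron navigator induced by retinoic acid, was at 6.50 to 6.93 at P0, 7.24 to 7.51 at P3, 6.82 to 7.07 at P7 and 1.78 to 2.14 at P15. It fell by 5.04 from P7 to P15 (adjusted p = 4.5e-25). RARRES3, a growth suppressor, fell by 3.25 from P7 to P15 (adjusted p = 4e-18), from libraries of 3.79 to 4.03 to libraries of 0.29 to 1.00. The third, named after its values were seen, was RAI14, which fell by 1.59 (adjusted p = 1.4e-24). In P15 against P0 these 3 were lower as well, and BHLHE40 was higher by 1.07 (adjusted p = 9e-14). Thus 1 of the 10 was higher and 3 lower, against 12.1% and 11.4% of all tested genes. The median difference of the 10 was -0.62. RARRES1 and RARRES2 were below 1 CPM on average and not tested.

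**Figure D5:**
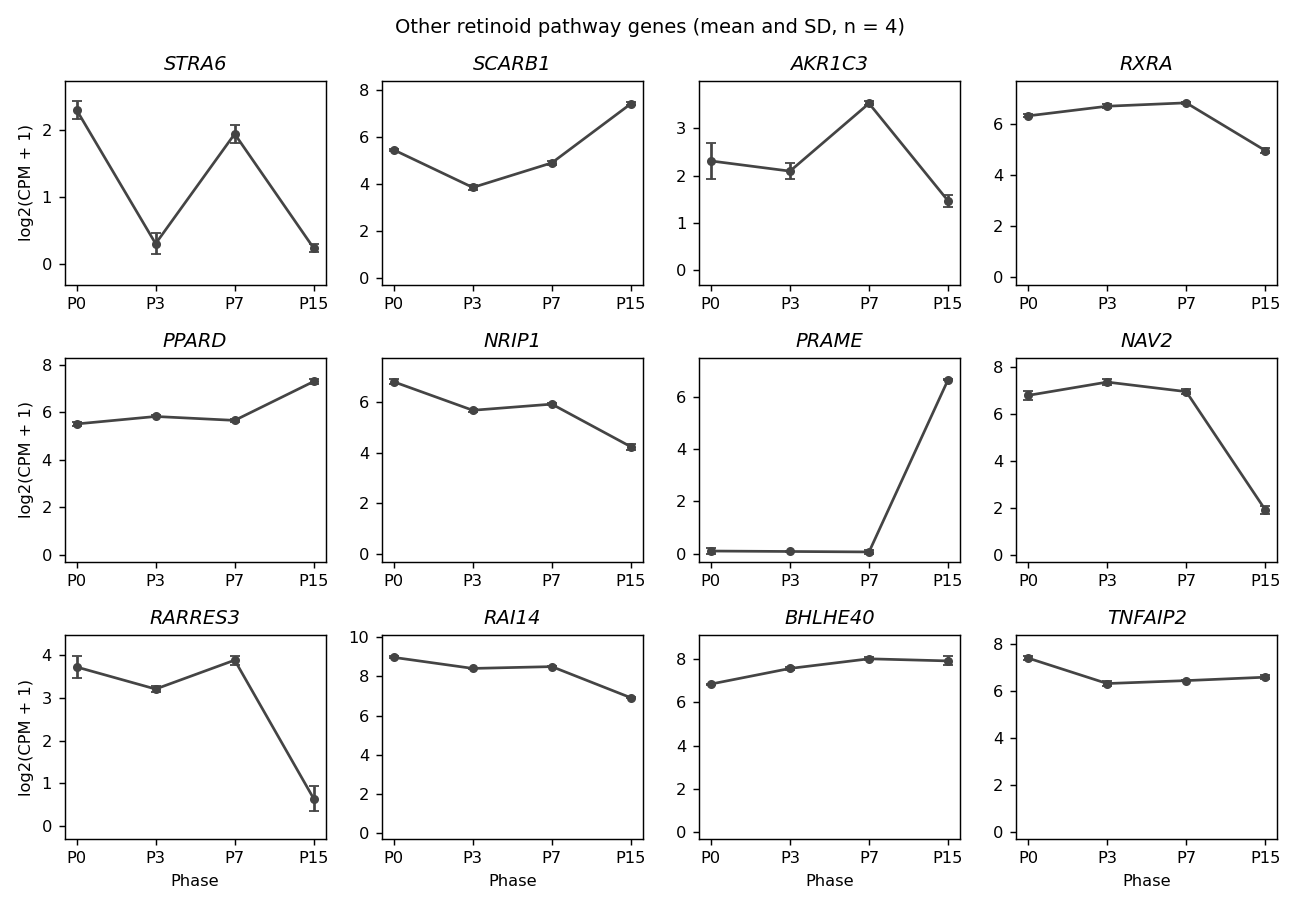
Mean and SD of log2(CPM + 1) over the 4 libraries of each phase for 12 other retinoid pathway genes, joined by lines between phases. STRA6 is high at P0 (2.30) and P7 (1.94) and low at P3 (0.31) and P15 (0.24), PRAME is near 0 until P7 and at 6.65 at P15, and NAV2 drops from 6.95 at P7 to 1.91 at P15.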

How the data were processed

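Paired-end RNA-sequencing reads were aligned by the authors with STAR (2.6.1a, per the submitters' processing notes) to GRCh38 and counted with featureCounts. The table deposited by the authors gives log2(CPM + 1) with 2 decimals under 39007 symbols. The annotation release and the strand setting are not given in the sources used here. All 16 libraries entered 1 limma fit (version 3.58.1, R 4.3.3) with a mean for each phase and a variance trend. Two-sided p-values of the 13249 genes whose mean exceeded 1 CPM were adjusted after Benjamini and Hochberg. The procedure was tested on simulated data. Counts were recovered from the lowest values. Totals of 33.8 to 50.02 M limit what can be said of genes under about 3 counts. The members, gene lists and tests were chosen with earlier results of these data known. Other pathway genes were named by role group, as the 2 with the largest difference among those changed in each tested comparison. RAI14, BHLHE40, TNFAIP2, RXRB, RXRG, FABP5, LRAT, RPE65, RBP4, RARRES1, RARRES2 and the retinal dehydrogenases were added after their values were seen. Comparisons against P0 at P3 and P7 were given without tests for the members. Alternatives covered filters, pseudocounts, scalings, a replicate block, the variance prior, pairs of phases alone, the fold limit and each library left out. Positions and exon lengths are from GENCODE 44 on GRCh38, and PLAAT4 was matched by its older symbol RARRES3.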

Additional observations from a re-analysis of the deposited data

Results flagged for a closer look

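Each of the 9 genes was examined in each phase, 36 groups of 4 libraries, for a library far from the others of its phase (Dixon's ratio, the gap to the nearest library over the whole range of the phase). CYP26A1 at P7 was at 0 in all 4 libraries and gave no ratio. Chance gives about 1 in 20 for normally distributed values, which the counts of 0 and 2 in the flagged groups are not. A high library was found for CYP26A1 at P0, where replicate 1 held 2 counts and the other 3 held 0, a ratio of 1.00. A low library was found for RARB at P7, where replicate 3 held 0 counts and the other 3 held 2 each, a ratio of 0.86. Both differences are of 2 counts, the worth of 1 read pair, in genes that were not tested.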

How the results depend on the processing

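Of the alternatives for single members, 472 kept direction and side of the adjusted p of 0.05, 6 lost it, 1 gained it and 4 turned direction. The 472 include the setting without the fold limit, which reuses the main fit and was bound to be the same. The 2-fold limit was lost in 7 of the alternatives. Of these, 5 were for RDH10 in P15 against P0 (in the report). The other 2 were for CRABP2 with a pseudocount of 5 (0.98 from P7 and 0.97 from P0 to P15). CRABP2 had libraries below 1 CPM, so it was not tested where above 1 CPM in all libraries was required. The 4 are CRABP2 in P7 against P3, a difference near 0 (-0.11 to 0.0733 with each library left out). RDH10 in P15 against P7 made up the 6, those in the report besides quantile normalization (0.06, adjusted p = 0.48) and no filter (adjusted p = 0.059), and CYP26B1 in P15 against P0 passed under quantile normalization (-0.13, adjusted p = 0.032). With the fold of DHRS3 as a ratio of pooled CPM, chosen after seeing the data, P0 was 543, 105 and 40.7 times P3, P7 and P15. Genes changed in P7 against P3 numbered 243 of all tested, 138 when above 1 CPM in all libraries was required, 445 with a pseudocount of 0.1 and 106 with 5. That filter left 7 of 12 changed pathway genes in P15 against P7 and 7 of 12 in P15 against P0. The pathway counts of this paragraph include BCO2, HSD17B6 and PRAME, which the report left out of the comparisons with P15. That filter was bound to remove them, since they were below 1 CPM before P15. A pseudocount of 5 left 0 pathway genes in P7 against P3, 2166 of all genes in P15 against P7, and 1976 genes and 1 member in P15 against P0. Without the fold limit, the members numbered 5, 6 and 5, the pathway genes 25, 32 and 33, and all genes 7713, 11452 and 11423 in P7 against P3, P15 against P7 and P15 against P0. The replicate numbers share only a number: deviations of same-numbered libraries correlated at -0.15 to 0.22, and with a replicate block 243 genes changed in P7 against P3, 3377 in P15 against P7 and 3125 in P15 against P0, with 0, 3 and 3 members. The causes were not tested. Counts of 0 to 8 a phase leave CYP26A1 without a comparison.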
